A study of Bos taurus with 8 samples.

Results

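The miRNAs described here are 5 that are known from other mammals to mature without the nuclear enzyme Drosha: bta-miR-320a, bta-miR-320b, bta-miR-484, bta-miR-877 and bta-miR-1224. They were chosen by name among the 744 bovine miRNAs of the array. Plasma exosomes, small vesicles that carry RNA between cells, were collected from Japanese Shorthorn steers kept on pasture (grazing) or in a free-stall barn (housed). For each group at 0, 1, 2 and 4 mo, where 0 mo precedes the feeding trial, the RNA of its 3 steers was mixed and put on 1 one-colour array. All animals were fed grass without grain, and each group had the same 3 steers at every month. With 1 array per group and month there was no replicate, so each error below is the scanner software's estimate for 1 array. It leaves out the spread between animals. For bright probes it was a near-constant part of the signal, not the measured scatter of the spots.

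Most miRNAs are cut in successive steps, first by Drosha in the nucleus and then by Dicer in the cytoplasm. Mirtrons such as miR-877 and miR-1224 lie in short introns, and splicing takes the place of the first cut. The precursors of miR-320 and miR-484 are made as short capped transcripts whose ends are set by transcription, so that Dicer alone remains to act on them.

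The deposited labels and the study's supplementary expression table differ in how they name grazing and housed cattle. The signals of each array were matched to the table's columns within 1%. All 226 detected miRNAs of the housed 0 mo label fell in a column lettered G, which the legend gives to grazing cattle, and so did the 3 later arrays of that label in its other G columns. All 167 of the grazing 0 mo label fell in a column lettered A, and the 3 later arrays likewise. The legend does not explain the letter A and uses H for its other group, so the A columns are housed cattle only by elimination. What the study's text says of the housed 0 mo sample also describes the array labelled grazing 0 mo. At 2 mo, the study's qRT-PCR, normalized to let-7g, gave miR-451, miR-223 and miR-320a directions opposite to those between the deposited labels. For miR-320a, the array difference was 0.13 (0.19), within its error, on the log2 scale used below. It was 0.53 when the arrays were scaled to let-7g. Arrays are therefore called labelled housed and labelled grazing, and every direction between them given below is the opposite one when read by that table. All arrays lay on 1 slide, labelled housed in column 1 and labelled grazing in column 2, with the months in rows 1 to 4, so that slide column and label cannot be told apart, nor slide row and month.

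The total signal of a miRNA is the background-subtracted brightness summed over its probes. miR-1224 and miR-320a were detected on 8 of 8 arrays, miR-484 on 5, miR-320b on 1 and miR-877 on 0. Thus 4 of the 5 were detected on at least 1 array and 2 of the 5 on all 8, where 231 and 143 of the 744 bovine miRNAs were. The software's detection flag was set for a miRNA exactly where at least 1 of its probes exceeded 3 times its own error, in 5952 of 5952 cases.

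The mirtron miR-1224 was measured at more than 12 times its error on every array. That ratio stayed between 12.2 and 12.6 over signals from 373 to 1968, because the error rose with the signal. It therefore shows detection but does not rank precision. In the order 0, 1, 2 and 4 mo, its signal was 1968, 736, 433 and 733 labelled housed, and 891, 373, 722 and 664 labelled grazing. Arrays differed in their summed brightness, from 157696 over the detected miRNAs for the label housed 0 mo to 45507 for grazing 1 mo, so these signals cannot be compared directly between arrays. As a share of the summed signal of its array, miR-1224 made up 1.25% (0.102), 0.874% (0.0691), 0.694% (0.0553) and 0.806% (0.0659) labelled housed, and 1.55% (0.126), 0.819% (0.0668), 1.14% (0.0915) and 1.29% (0.105) labelled grazing. The share was highest at 0 mo under both labels, and the labels overlapped.

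For the comparisons, signals were expressed relative to the 90th percentile that the 744 miRNAs had on the same array. The scaled signal of miR-1224 was 18.1 (1.47), 8.85 (0.700), 8.55 (0.682) and 8.89 (0.727) in the order of months for the label housed. On those labelled grazing it was 21.9 (1.78), 11.9 (0.973), 12.9 (1.04) and 19.4 (1.58). Labelled housed, the value at 0 mo stood apart from 3 nearly equal later values, whereas labelled grazing it was low at 1 and 2 mo and at 4 mo its error bar overlapped that of 0 mo. At each later month the array labelled grazing was the higher, and the later arrays of the labels did not overlap. This was not particular to miR-1224. The later arrays of miR-1584-5p were likewise higher labelled grazing without overlap. Those of let-7g, miR-126-3p and miR-126-5p were lower labelled grazing without overlap. How many of all miRNAs did so was not counted.

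**Figure D1:**
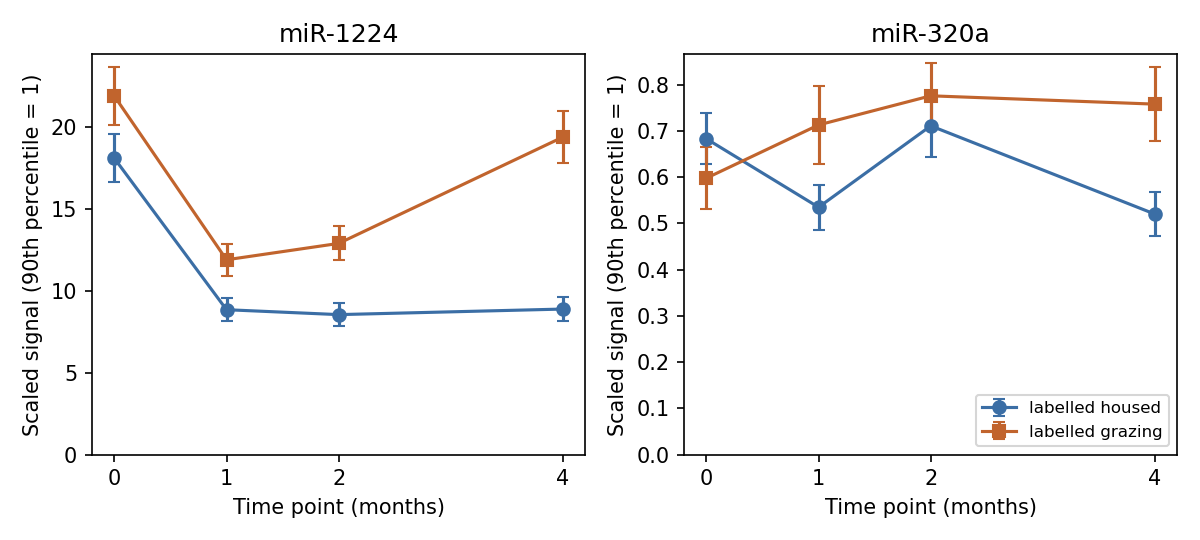
Scaled signal (90th percentile of the array = 1) of miR-1224 and miR-320a against month; each point is 1 array of 3 pooled steers and bars are the scanner software's error estimate. miR-1224 lies between 8.55 and 8.89 on the later arrays labelled housed and between 11.9 and 19.4 on those labelled grazing; miR-320a lies between 0.520 and 0.776 on all 8 arrays.

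On the log2 scale, the change of miR-1224 from 0 mo was -1.03, -1.08 and -1.02 at 1, 2 and 4 mo labelled housed, with errors of 0.16, 0.16 and 0.17. Labelled grazing it was -0.88, -0.77 and -0.18 (0.17, 0.16 and 0.17). The mean change was -1.04 (0.14), or 0.485 of the 0 mo level, labelled housed and -0.61 (0.14), or 0.657, labelled grazing. Both means were past 1.5-fold downward, as were 17.5% of the 143 miRNAs detected on all 8 arrays labelled housed and 14.7% labelled grazing. Counted in either direction, 1 of the 2 members detected throughout passed 1.5-fold under each label, beside 20.3% and 19.6% of the 143. From the lowest, miR-1224 was number 7 of 143 in mean change labelled housed and number 21 labelled grazing. The lower level labelled housed was past 1.5-fold under 15 of 15 alternatives, and that labelled grazing under 9 of 15; quantile normalization gave -0.22.

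Taken as labelled grazing minus labelled housed, the mean changes of miR-1224 differed by 0.44 (standard error 0.42; limma adjusted p = 0.961), and it did not pass the threshold of 0.05. Over 16 alternatives this difference ran from 0.00, with a percentile of the miRNAs seen on every array, to 1.01 without scaling, was 0.23 without 4 mo, and passed in 0 of them. Of the 143 miRNAs, 2 passed in that comparison (1.40%), and 0 of the 2 members; 9 of the 143 had an unadjusted p under 0.05. At 0 mo the labels differed by 0.28 (0.17) for miR-1224 and by -0.19 (0.20), within its error, for miR-320a, beside a median of -0.22 over the 143. Neither was past 1.5-fold there, whereas 26.6% of the 143 were. With 1 array per label at 0 mo, the test of the changes took each miRNA's own spread from the later months alone. In both tests limma drew that spread toward one shared by all miRNAs tested, with 14.54 prior against 2 residual degrees of freedom. Most of the spread behind each p was thus the shared one.

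At the later months alone, miR-1224 differed by 0.43 (0.16), 0.59 (0.16) and 1.13 (0.17) at 1, 2 and 4 mo, so that on this scale it was higher labelled grazing at 3 of 3 months. The 1 mo direction turned with the sum of the detected signal (-0.09) and normexp (-0.14), and without scaling 1 and 4 mo turned (-0.98 and -0.14). The mean was 0.72, a 1.64-fold difference, with a standard error of 0.21 and a limma adjusted p of 0.0360. It was 1 of the 16 miRNAs of 143 (11.2%) that passed, 9 of them higher and 7 lower labelled grazing, and 10.5% of the 143 were at least 1.5-fold higher labelled grazing. The call depended on the processing: of 16 alternatives, 4 left the adjusted p under 0.05, over a range from 0.00349 to 0.822, while 15 left the difference above 0 and 11 at least 1.5-fold. Among the lost calls it was 0.73 with quantile normalization, 0.69 with spot means, 0.78 with the authors' table and 0.36 with normexp, and it was -0.13 without scaling. Without 1, 2 or 4 mo it was 0.86, 0.78 and 0.51, with adjusted p of 0.211, 0.116 and 0.345 from fits with 1 residual degree of freedom, which say nothing of stability. The split of higher against lower calls moved to 42 and 3 with scaling to let-7g, 7 and 22 with a percentile of the miRNAs seen on every array, 2 and 3 with the 75th percentile, and 0 and 3 with the sum of the detected signal or no scaling. It was 0 and 11 with normexp background correction, and 9 and 12 with detection by spots well above background. The pools of a group come from the same steers, so the test describes these pools.

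miR-320a, the member of the miR-320 family with a signal on every array, exceeded its error between 8.46 and 12.4 times. Its signal was 74.4 (6.02), 44.5 (4.04), 36.0 (3.46) and 42.9 (3.88) at 0, 1, 2 and 4 mo labelled housed, and 24.3 (2.71), 22.3 (2.63), 43.5 (4.03) and 26.0 (2.74) labelled grazing. Of its 40 spots, 40 were well above background on 5 arrays, and 32, 26 and 36 on the arrays labelled grazing 0, 1 and 4 mo. The scaled signal was 0.683 (0.0553), 0.535 (0.0485), 0.711 (0.0683) and 0.520 (0.0471) labelled housed, and 0.598 (0.0666), 0.713 (0.0842), 0.776 (0.0717) and 0.758 (0.0800) labelled grazing. The lowest values were labelled housed at 1 and 4 mo, and the labels overlapped.

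miR-320a was among the steadier miRNAs. Its SD over the 8 arrays on the log2 scale was 0.22, number 29 from the lowest of 143, against a median SD of 0.33, while that of miR-1224 was 0.55, number 127. The mean change from 0 mo was -0.23 (0.14) labelled housed and 0.32 (0.18) labelled grazing, both short of 1.5-fold. Labelled housed, its sign turned under 3 of 15 alternatives. The difference in mean change was 0.55 (standard error 0.40; limma adjusted p = 0.802), and over 16 alternatives it ran from 0.12, with a percentile of the miRNAs seen on every array, to 1.13 without scaling and passed in 0. At the later months miR-320a was higher labelled grazing at 3 of 3 months, by 0.41 (0.21), 0.13 (0.19) and 0.54 (0.20), with a mean of 0.36, a standard error of 0.20 and a limma adjusted p of 0.215. A month turned with the sum of the detected signal (-0.11 at 1 mo), with a percentile of the miRNAs seen on every array (-0.02 at 2 mo) and with the 75th percentile (-0.01 at 4 mo), and without scaling 1 and 4 mo did (-0.72 at 4 mo). That difference did not pass, except with scaling to let-7g (adjusted p = 0.0138; range over 16 alternatives 0.0138 to 0.827), and was -0.48 without scaling.

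A comparison within each array does not depend on the factor by which that array is scaled. The change of miR-1224 minus that of miR-320a was -0.68 (0.24), -1.14 (0.24) and -0.63 (0.24) at 1, 2 and 4 mo labelled housed. Labelled grazing it was -1.13 (0.29), -1.14 (0.27) and -0.52 (0.28). At every later month and under both labels miR-1224 thus went down relative to miR-320a, by more than 1 error in each case. Averaged over the later months it was -0.82 (0.19) labelled housed and -0.93 (0.23) labelled grazing. Quantile normalization, which does not use 1 factor per array, gave -0.98 and -0.43, with -0.03 labelled grazing at 4 mo, and normexp gave -1.09 and -0.74, alternatives chosen after seeing the data. This shows unequal change of the pair, not which of them changed.

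miR-484 lay near the limit of detection. Its signal was 15.8 (2.19), 11.8 (2.20), 7.06 (2.05) and 12.8 (2.21) on the arrays labelled housed, where it was detected on 4 of 4. On those labelled grazing it was 5.42 (2.00), 4.62 (2.00), 10.3 (2.27) and 5.49 (1.92), detected at 2 mo only. The undetected arrays were those with the lowest summed signals, and the part of brightness in detection was not tested. Where it was detected, the scaled signal was 0.145 (0.0201), 0.142 (0.0264), 0.139 (0.0405) and 0.155 (0.0267) labelled housed and a measured 0.183 (0.0404) labelled grazing 2 mo. The undetected arrays, labelled grazing 0, 1 and 4 mo, had scaled signals of 0.133 (0.0491), 0.148 (0.0639) and 0.160 (0.0560). Each was under 3 times its error, and no fold between the labels was taken at those months.

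Where miR-484 was measured at both ends, its changes were small against their errors. Labelled housed, it changed from 0 mo by -0.03 (0.34), -0.05 (0.46) and 0.10 (0.32) at 1, 2 and 4 mo. At 2 mo, labelled grazing minus labelled housed was 0.39 (0.53). Most of its spots were well above background on 1 of 8 arrays.

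miR-320b was detected on the array labelled housed 0 mo alone, with a signal of 7.42 (1.94). On the other 7 arrays its signal lay between -1.40 and 0.905, that is, at background. The array labelled housed 0 mo was also the brightest of the 8 and had the most detected miRNAs, 226. No array had most of the spots of miR-320b well above background. Scaled, its 0.0681 on that array was below the lowest detected signal of 4 of the 7 others. On the rest, labelled housed 1, 2 and 4 mo, it was under 3 times the error of miR-320b there (0.0240, 0.0390 and 0.0240). By the flag alone, a level like it might thus have gone undetected on all 7. The scaled signals measured labelled housed 1, 2 and 4 mo were -0.00245, -0.00920 and 0.0110, each below 0.0681 by more than its error.

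The mirtron miR-877 stayed at background. Its lowest signal was -1.90 (1.38), labelled grazing 1 mo, and its highest 1.82 (1.32), labelled housed 0 mo, and it reached at most 1.38 times its error. Of its 40 spots, 0 were well above background on any array. Of the mirtrons among the members, 1 was thus detected on every array and 1 on none.

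**Figure D2:**
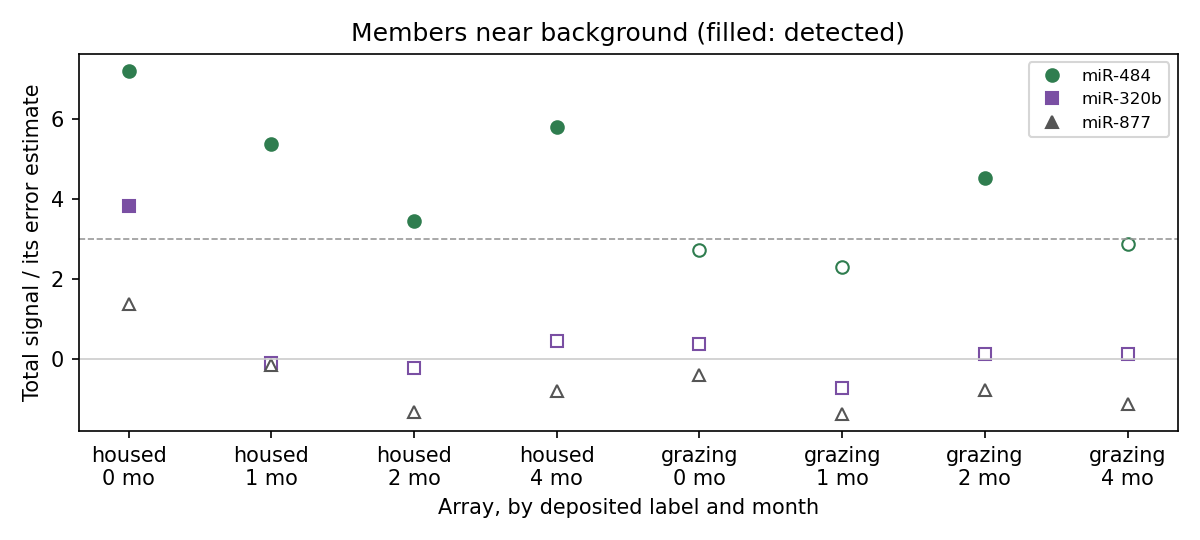
Total signal divided by its error estimate for miR-484, miR-320b and miR-877 on each array; filled points are detected, open points are not, and the dashed line is at 3. miR-484 lies between 2.31 and 7.19, miR-320b reaches 3.82 on the array labelled housed 0 mo, and miR-877 stays at or below 1.38.

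The probes show what each measurement rests on. A probe is the reverse complement of the end of the miRNA it binds, and each miRNA had nested probes that differ by a base or a few at the end. For miR-320a and miR-320b, the longest probes are shown because they share a run of 10 bases, given in capitals:

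miR-320a: tcgCCCTCTCAAC
miR-320b: accaCCCTCTCAACc

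No other bovine miRNA of the array had a probe with that run. For the label grazing 2 mo, where the signal of miR-320a was 43.5, the probes of miR-320b were at background, at 0.281 (2.13). For the label housed 0 mo, where that of miR-320a was 74.4, miR-320b was detected, at 7.42 (1.94). Binding of miR-320a to the probes of miR-320b was not tested. The array design places the longest probe of miR-320b at chr4:96417238-96417251 of UMD_3.1. It lists 4 places for miR-320a, on chromosomes 8 and 20, under that build. RefSeq names 2 genes for it on those chromosomes of ARS-UCD2.0, and whether all 4 places belong to UMD_3.1 was not settled. The signal of miR-320a cannot be tied to 1 gene.

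The remaining members had probes rich in G and C. The bases that the longest probe adds to the shortest are in capitals:

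miR-1224: ctccacctccC
miR-484: atcgggaggggactgA
miR-877: ccctgcgccaTCT

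The probe of miR-1224 lies at chr1:83546873-83546882, that of miR-484 at chr25:14176056-14176070 and that of miR-877 at chr23:28203169-28203180. These spans and that of miR-320b, as the design lists them, are 1 base shorter than the probes shown. Taken singly, the probes gave miR-1224 mean changes of -0.92 (10 bases) and -1.08 (11 bases) labelled housed and -0.60 and -0.61 labelled grazing; for miR-320a they gave -0.36 and -0.18 labelled housed and 0.26 and 0.35 labelled grazing, an alternative chosen after seeing the data. The probes of each miRNA thus gave the same sign.

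By gene names in the assembly ARS-UCD2.0, the gene of miR-1224 lies within VWA5B2 and that of miR-877 within ABCF1. Of the 2 genes of miR-320a, 1 is next to POLR3D, which encodes a subunit of RNA polymerase III, and 1 lies within RNF180. The gene of miR-484 lies in no other gene and is nearest to MARF1. The array also held miR-2378, whose gene lies in ABCF1 as well, and it was detected on 0 arrays, as was miR-877.

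The share of G and C in the longest probe was 72.7% for miR-1224 and 61.5% for miR-320a, against a median of 50% over the 744 miRNAs. Among the 143 miRNAs detected throughout, the 52 with a share of at least 60% had a median mean change of -0.39 labelled housed and -0.38 labelled grazing, and the 91 others 0.09 and 0.24. The 18 miRNAs within 5 percentage points of miR-1224 had medians of -0.58 and -0.42, with 16 and 15 of them below 0, and the 16 within 5 points of miR-320a had -0.05 and 0.14. The median later difference, labelled grazing minus labelled housed, was 0.28 for the 52 and -0.16 for the 91, and 0.23 and 0.18 for those near miR-1224 and miR-320a. The lower level of miR-1224 after 0 mo and the later differences of both miRNAs were thus in the direction of probes of like composition, and the part of base composition in them was not tested.

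Over the 8 arrays, the miRNAs whose log2 scaled signals were most like those of miR-1224 were miR-2374, miR-1249 and miR-1584-5p, with a Pearson r of 0.94, 0.94 and 0.93 against a median of -0.40 over 142 miRNAs. Their probes held 83.3%, 60% and 83.3% G and C. For miR-320a they were miR-423-5p, miR-2388-3p and miR-140, with 0.85, 0.84 and 0.74. Their probes held 52.9%, 52.9% and 60% G and C, against a median of 52.9% over the miRNAs detected on all 8 arrays. Between miR-1224 and miR-320a the Pearson r was 0.35. The 8 points share a slide, the scaling of each array and, within a label, the same steers. After quantile normalization none of the 3 was first for miR-1224: miR-2374 was number 3 with 0.87, miR-1584-5p number 6 with 0.84 and miR-1249 number 11 with 0.78. With the same values miR-423-5p was first for miR-320a with 0.91, while miR-2388-3p was number 12 and miR-140 number 29.

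Other miRNAs made without Drosha were few on the array. Of 11 listed mirtrons and miRNAs from small nucleolar RNAs, it held 4, and 2 of these were detected on at least 1 array and 0 on all 8. The mirtron miR-1225-3p, in the gene PKD1, was detected on 5 arrays. Its scaled signal there was 0.130 (0.0193) and 0.102 (0.0251) labelled housed 0 and 4 mo, and 0.227 (0.0506), 0.162 (0.0398) and 0.347 (0.0600) labelled grazing 0, 2 and 4 mo. miR-664 was detected on the array labelled grazing 0 mo alone, with 14.9 (2.23), against 0.365 to 5.14 on the others. miR-1248 and miR-1291 were detected on 0 arrays.

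miR-451 is the reverse case, cut by Drosha but not by Dicer, and is abundant in red cells. At the later months it was lower labelled grazing at 3 of 3 months, by a mean of -0.92 (standard error 0.22; limma adjusted p = 0.0144), the opposite direction from miR-1224. Summed over miR-451, miR-144, miR-486 and miR-16b, red cell miRNAs that were all detected throughout, the share of the signal was 2.04%, 3.74%, 3.45% and 4.65% labelled housed and 1.85%, 2.04%, 1.61% and 1.71% labelled grazing, with miR-451 the brightest. Summed over miR-223, miR-126-3p and miR-126-5p, which are rich in platelets, it was 5.14%, 8.30%, 5.89% and 7.25% labelled housed and 3.57%, 4.99%, 5.79% and 4.01% labelled grazing. The share of red cell miRNAs was thus above its 0 mo value at 3 of 3 later months labelled housed and at 1 of 3 labelled grazing, and that of platelet miRNAs at 3 of 3 under both labels, while the share of miR-1224 was below its 0 mo value at every later month under both. Most shares rose, however. Scaled to the sum of the detected signal, the median mean change of all miRNAs tested was 0.38 labelled housed and 0.20 labelled grazing. On the scaled signal, the mean changes of miR-451, miR-144, miR-486 and miR-16b were 0.60, 0.88, 0.52 and 0.08 labelled housed and -0.17, -0.21, 0.13 and 0.06 labelled grazing. Their later differences, labelled grazing minus labelled housed, were all below 0, and those of miR-451 and miR-144 (-1.38; limma adjusted p = 0.00108) passed, while miR-486 (-0.33; limma adjusted p = 0.326) and miR-16b (-0.54; limma adjusted p = 0.0628) did not. Among the platelet miRNAs, the mean changes of miR-223, miR-126-3p and miR-126-5p were 0.27, 0.00 and 0.39 labelled housed and 0.90, 0.12 and 0.00 labelled grazing. The later difference passed for miR-126-5p (-0.70; limma adjusted p = 0.0327) but not for miR-126-3p (-0.58; limma adjusted p = 0.0562) or miR-223 (0.42; limma adjusted p = 0.184). With quantile normalization 0 miRNAs passed at the later months, so the calls of miR-451, miR-144 and miR-126-5p were lost. The part of blood cell miRNAs in the result was not tested. let-7g, the reference of the study's qRT-PCR, differed by -0.33 (standard error 0.20; limma adjusted p = 0.258) at the later months.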

How the data were processed

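The authors hybridized Cy3-labelled pooled RNA to custom Agilent arrays and quantified them with Feature Extraction 10.7.3.1. The deposited scanner files hold intensity values, background-subtracted but not normalized, with an error estimate and a detection flag (unit other) per the file headers. The authors also deposited a series table of normalized values, a ratio of signal to 1 factor per array, linear and uncentred. Per the study's methods, GeneSpring GX was used for global normalization to the 90th percentile; over which values it was taken is not given in the sources used here. Its column medians, the constant of undetected miRNAs, were 0.000664, 0.000926, 0.00149 and 0.000915 labelled housed and 0.00187, 0.00257, 0.00135 and 0.00241 labelled grazing. Of its 743 entries, 730 matched by name.

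Total signals were divided by the 90th percentile of the array, floored at 0.114 and taken to log2; neither miR-1224 nor miR-320a had a value raised. limma 3.58.1 in R 4.3.3 was fitted with month and label terms to the 143 miRNAs flagged as detected everywhere. It had 2 residual and 14.54 prior degrees of freedom, used Benjamini-Hochberg adjustment at 0.05, and was tested on simulated data. Errors of differences combine the scanner estimates in quadrature. Other values used Python 3.11.15, numpy 2.4.6 and pandas 2.3.3. The number of arrays limits precision.

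The miRNAs named are the 5 members, a list of other miRNAs made without Drosha, miR-451, red cell and platelet miRNAs, let-7g and, for each member detected throughout, the 3 with the highest Pearson r. The members and lists were chosen with earlier results of these data known, and miR-2378 and the base composition classes after their values were seen. A search for miRNAs that share bases 2 to 8 with a member was not run, because mature sequences were not used here.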

Additional observations from a re-analysis of the deposited data

Results flagged for a closer look

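In 20 sets of 4 arrays of a label, covering shares, log2 scaled signals and signals over error of the 5 miRNAs, 2 held an array far from the other 3; chance gives about 1 in 20 sets. The log2 scaled signal of miR-1224 was 4.17 on the array labelled housed 0 mo, against at most 3.15 at the later months. The signal of miR-320b was 3.82 times its error on the array labelled housed 0 mo, against at most 0.457 on the others of that label. Both fall on the same array, which was the brightest, and the part of its brightness was not tested.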

How the results depend on the processing

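The count of members detected on all 8 arrays was 2 under every detection rule tried. The count of miRNAs whose change differed between the labels, 2, was 2 with an intensity trend, 14 with miRNAs detected on at least 1 array and 0 under the other 14 alternatives, where limma left 4 to 16 at an unadjusted p under 0.05. The count that differed at the later months, 16, was 29 with the percentile over miRNAs detected on all arrays, 5 with the 75th percentile, 3 with the sum of detected signal, 45 with let-7g, 0 with quantile normalization (44 at an unadjusted p under 0.05), 3 without scaling, 8 with spot means, 7 with the authors' table, 1 with miRNAs detected on at least 1 array, 32 with an intensity trend, 1 without 1 mo, 2 without 2 mo and 0 without 4 mo (14 at an unadjusted p under 0.05).

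The mean change of miR-1224 was below 0 throughout. Labelled housed it was -0.71 with the percentile over miRNAs detected on all arrays, -0.67 with the 75th percentile, -0.66 with the sum, -1.22 with let-7g and -1.68 without scaling. Labelled grazing it was -0.39 with the 75th percentile, -0.22 with quantile normalization and -0.82 without 4 mo. For miR-320a labelled housed the same first 5 settings gave 0.10, 0.14, 0.15, -0.41 and -0.86, normexp -0.06 and leaving out 2 mo -0.37; labelled grazing, the 75th percentile gave 0.54 and normexp 0.13. Without scaling, the later difference turned to -0.13 for miR-1224 and -0.48 for miR-320a. The median mean change of all miRNAs tested was 0.00 labelled housed and 0.15 labelled grazing, and moved to 0.37 for both with the 75th percentile and to -0.63 and 0.09 without scaling. The cause was not tested. For single miRNAs, the alternatives on detection, the filter and the trend were chosen after seeing the data. No pairing by replicate or animal was possible, because the titles give no replicate number and each label and month holds 1 pooled array. The limma fits did pair the labels by month, setting them against each other within months. Signal over background limits miR-484, miR-320b and miR-877.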
